A study of Mus musculus with 4 samples.

Results

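Kit, its ligand and 8 transcription factors of progenitor and differentiating spermatogonia were followed by RNA-seq through retinoic acid (RA)-induced differentiation in culture. These 10 genes were chosen by name (Kit, Kitl, Sohlh1, Sohlh2, Dmrtb1, Dmrt1, Neurog3, Sox3, Taf4b and Gata2), and all 10 had a row among the 19991 genes of the deposited table. Undifferentiated spermatogonia (SG) and differentiating spermatogonia (dSG) were compared, with 2 libraries in each group. Both groups were wild type mouse cells grown from testes in Stempro34 medium with FGF, GDNF, EGF and ESGRO (leukemia inhibitory factor). SG carried the treatment label DMSO and dSG the label retinoic acid, for 36 h. The labels give the RA dose as 100 µM and the strain as C57BL/6, whereas the methods name the same figure in nM and DBA mice or their F1 offspring. By the methods, the cultures were started from the testes of young pups by sorting CD9+/c-Kit- cells, and differentiation was carried out on Matrigel. Neither source says whether the libraries within a group stem from different cultures. All p-values therefore reflect only the library-to-library spread, which may be technical.

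KIT is a receptor tyrosine kinase on the cell surface, and KIT ligand (stem cell factor, encoded by Kitl), made in the testis mainly by Sertoli cells, binds and activates it. Spermatogonial stem cells and early progenitors carry little KIT, and the appearance of KIT marks the RA-driven transition to differentiating spermatogonia, which need the receptor to survive and divide. SOHLH1 and SOHLH2 are germ cell basic helix-loop-helix (bHLH) factors that bind E-boxes (CANNTG) and are needed for Kit expression and for differentiation. DMRT1 and DMRTB1 (also called DMRT6) are DM-domain factors, of which the first holds back meiosis in spermatogonia and the second acts in the passage from mitosis to meiosis. NEUROG3 and SOX3 mark progenitors, TAF4B is a germ cell subunit of the basal transcription factor TFIID, and GATA2 is a zinc finger factor best known from blood stem cells and mast cells, where Kit is also expressed.

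Because SOHLH factors bind E-boxes, the start-site sequences of Kit, Sohlh1 and Sohlh2 are shown, from RefSeq on GRCm38.p6. Each holds 250 bases before and 50 bases after the annotated start, written along the gene's strand, with E-boxes (CANNTG, read on both strands, which is the same for a match of this palindromic pattern) in capitals. The windows are chr5:75574737-75575036 on the + strand for Kit, chr2:25847199-25847498 on the - strand for Sohlh1 and chr3:55181794-55182093 on the + strand for Sohlh2.
Kit: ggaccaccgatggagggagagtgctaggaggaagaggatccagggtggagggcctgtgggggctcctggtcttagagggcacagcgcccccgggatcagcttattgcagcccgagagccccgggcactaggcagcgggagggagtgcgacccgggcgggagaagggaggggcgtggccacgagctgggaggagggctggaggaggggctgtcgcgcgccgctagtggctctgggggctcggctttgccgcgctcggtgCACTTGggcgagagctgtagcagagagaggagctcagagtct
Sohlh1: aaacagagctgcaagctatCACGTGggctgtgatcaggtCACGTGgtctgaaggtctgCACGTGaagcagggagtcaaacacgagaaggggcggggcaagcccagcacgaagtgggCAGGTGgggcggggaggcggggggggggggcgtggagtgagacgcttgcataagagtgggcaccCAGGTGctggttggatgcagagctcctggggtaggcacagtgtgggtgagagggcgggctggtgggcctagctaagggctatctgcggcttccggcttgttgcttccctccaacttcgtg
Sohlh2: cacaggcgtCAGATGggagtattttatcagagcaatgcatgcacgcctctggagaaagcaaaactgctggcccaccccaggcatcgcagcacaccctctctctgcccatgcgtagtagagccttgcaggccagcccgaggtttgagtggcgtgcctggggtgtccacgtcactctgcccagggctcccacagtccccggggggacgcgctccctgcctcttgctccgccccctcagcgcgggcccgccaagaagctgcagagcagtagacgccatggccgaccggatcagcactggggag
The Kit window held 1 E-box, just after the start, and the Sohlh2 window held 1, near its far upstream end. The Sohlh1 window held 5 E-boxes, of which 3 had the palindromic core CACGTG. Of 32851 RefSeq promoters of the same length, 72.3% held at least 1 E-box and 7.15% at least 1 CACGTG. At least 5 E-boxes were found in 2.1% of them and at least 3 copies of CACGTG in 0.0883%. The half-site AGGTCA, which receptors for RA recognize, was found once in the Sohlh1 window, where it overlapped a CACGTG, and in 16.3% of all promoters on either strand. It was absent from the listed windows of the other 6 matched genes. In all, 7 of the 10 genes were matched in this collection, and Sox3, Dmrt1 and Taf4b were not. These matches are letters in a window, and no binding was measured.

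The libraries were unequal in depth and likeness. SG replicate 1 held 7484560 reads, against 22307745 to 26953654 in the other 3 libraries, and 18.3% of its reads came from Lars2, a mitochondrial leucyl-tRNA synthetase gene, against 3.66 to 5.60% elsewhere. The log2 difference between replicates had an SD across genes of 0.81 in SG and 0.20 in dSG. The germ cell genes Ddx4 (3601 and 5696 normalized counts in SG, 5392 and 5712 in dSG) and Dazl (7280 and 19139 in SG, 19028 and 21484 in dSG) were abundant in all 4 libraries. Of the non-germ cell lists, 9 fibroblast and feeder markers were tested. Of these, 2 were called lower in dSG and none higher, against 4.91% lower and 1.16% higher among all tested genes. The 2 were Pdgfra and Thy1 (316 and 221 in SG, 34.1 and 26.9 in dSG, limma adjusted p = 0.0254). Thy1 encodes CD90, which the paper uses to mark undifferentiated spermatogonia, so it is not a marker of fibroblasts and feeders alone. The summed count of this list in the table was 35492 and 17590 in SG against 7357 and 7243 in dSG. Col5a1 (19873 and 6355 in SG, 1982 and 1818 in dSG), Fn1 (6808 and 6891, 4363 and 4500) and Col1a1 (5635 and 1459, 395 and 296) held most of this sum, whereas Dcn and Lum lay between 0 and 8.70 in all libraries, with the higher values in dSG. Col1a2 was also higher in dSG, at 13.04 and 3.15 in SG and 24.7 and 35.05 in dSG. It was not called (log2 fold change 1.60, limma adjusted p = 0.159). After the GC correction described below, Col1a2 was called higher (1.98, limma adjusted p = 0.0339) and 6 genes of this list were called lower. Sertoli cell markers summed to 1014 and 571 in SG and to 230 and 238 in dSG, with 2 of 6 called lower (Sox9 and Inhbb, the latter at 303 and 155 in SG and 34.8 and 20.7 in dSG). Wt1 was between 71.7 and 94.5 in all libraries, and Fshr was at 0 in 3 libraries and at 1 read in the other. In bulk samples, fewer cells of a type and less RNA per cell cannot be told apart, and the part of other cells in the results was not tested.

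**Figure D1:**
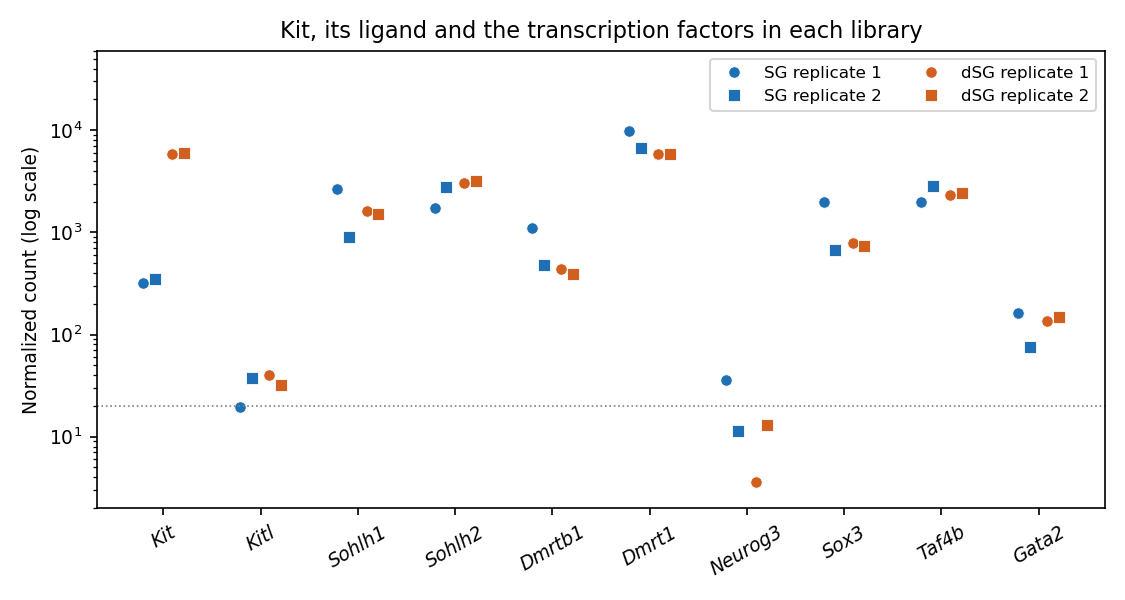
Normalized count (y axis, log scale) of the 10 genes (x axis) in each library, with SG in blue, dSG in orange, circles for replicate 1 and squares for replicate 2. The dotted line marks the 20 normalized counts that 2 libraries had to reach for a test. Kit lies at 319 and 347 in SG and at 5825 and 5921 in dSG, while for Sohlh1, Sox3, Taf4b and Gata2 both dSG libraries lie between the SG libraries.

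Kit was the only one of the 10 genes whose change passed the test. Kit (ENSMUSG00000005672; chromosome 5, 75574916 to 75656722, + strand, 21 merged exons, GRCm38 as for all coordinates here) was measured at 319 and 347 normalized counts in SG against 5825 and 5921 in dSG, that is, from 98, 552, 8031 and 9461 reads. Every dSG library was thus far above every SG library, and the replicates of each group lay close together. The mean rose from 333 ± 19.8 (SD, n = 2) to 5873 ± 67.9 (SD, n = 2), a 17.6-fold ratio of means. On the log2(normalized count + 4) scale, which understates the change of low genes, the fold change was 4.12 (standard error 0.17, 95% confidence interval 3.66 to 4.59, limma adjusted p = 0.0237, by the method of Benjamini and Hochberg over 14108 genes). Kit had the smallest p-value of all tested genes and was the 4th largest rise. At this limit, 6.07% of all tested genes were called, 1.16% higher and 4.91% lower, against 1 higher and 0 lower among the 9 tested members. At an unadjusted p under 0.05, which 26.8% of all tested genes reached, Kit was again the single member. It was also the single member called by edgeR and by DESeq2, which called 7.4% and 13.7% of all genes (1.4% and 3.32% higher). With 2 libraries against 2, a two-sided exact permutation test cannot go below p = 0.333, so every call rests on the variance that limma shares across genes. The change of Kit kept its side of the limit in all alternatives, from 3.99 to 4.42, with adjusted p of at most 0.0296.

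Kit transcript was already detectable in SG, and its place among the 10 genes was compared per kb of the longest transcript. Per kb, Kit stood 7th in SG at 63.6 ± 3.77 (SD, n = 2) normalized counts, between Dmrtb1 and Gata2, and 4th in dSG at 1121 ± 12.95 (SD, n = 2), next to Sohlh1 and Sohlh2. In SG the neighbours in this order from Sohlh1 through Sohlh2, Sox3 and Taf4b to Dmrtb1 did not differ beyond their SDs, and Kit lay below all of them. In dSG the order was Dmrt1, Sohlh2, Sohlh1, Kit, Taf4b, Sox3, Dmrtb1, Gata2, Kitl and Neurog3, with SDs smaller than the steps between neighbours except between the last 2. Relative to Sohlh2, the Kit level per kb was 0.0828 and 0.0568 in SG against 0.859 and 0.843 in dSG. No library of a group reached the ratio of the other group.

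Kitl, which encodes the ligand, was scarce in all libraries. Kitl (ENSMUSG00000019966; chromosome 10, 100015630 to 100100416, + strand) was measured at 19.6 and 37.8 normalized counts in SG and at 39.9 and 31.9 in dSG, from 6 reads in SG replicate 1 and 51 to 60 in the other libraries. The groups overlapped, and the log2 fold change was 0.34 (95% confidence interval -0.72 to 1.40, limma adjusted p = 0.587). It was the least abundant of the 10 genes per kb in SG (5.07 ± 2.28, SD, n = 2), and in dSG it stood next to Neurog3, at 6.36 ± 0.998 against 5.44 ± 4.37 (SD, n = 2 each), which do not differ beyond their spread. The receptor thus exceeded its ligand per kb by 17.6 and 9.91 times in SG and by 157 and 199.9 times in dSG.

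The SOHLH pair was abundant in both groups and neither member passed the test. Sohlh1 (ENSMUSG00000059625; chromosome 2, 25842995 to 25847248, - strand) was measured at 2630 and 900 normalized counts in SG and at 1603 and 1502 in dSG. Both dSG values lay between the SG values, as in 21.8% of all tested genes, and the SG values differed by 2.92 times. The log2 fold change was 0.01 (standard error 0.54, 95% confidence interval -1.43 to 1.46, limma adjusted p = 0.991), an interval that holds changes of over 2-fold in either direction. Against SG replicate 2 alone the log2 fold change was 0.78, and against SG replicate 1 alone it was -0.76.

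Sohlh2 (ENSMUSG00000027794; chromosome 3, 55182028 to 55209957, + strand) was measured at 1740 and 2757 normalized counts in SG and at 3060 and 3168 in dSG. Both dSG libraries were above both SG libraries, as in 33.2% of all tested genes. The log2 fold change of 0.51 (standard error 0.28, 95% confidence interval -0.23 to 1.24) did not pass the test (limma adjusted p = 0.301). The SG libraries moved in opposite directions for the 2 partners: the level of Sohlh1 over that of Sohlh2 per kb was 2.77 in SG replicate 1 and 0.599 in SG replicate 2, and 0.961 and 0.870 in dSG. The dSG ratios lay between the SG ratios.

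Both DM-domain genes had lower values in dSG, without passing the test. Dmrt1 (ENSMUSG00000024837; chromosome 19, 25505618 to 25604329, + strand) was the most abundant of the 10 genes per kb in both groups, with 3539 ± 984 (SD, n = 2) in SG against 2505 ± 25.4 (SD, n = 2) in dSG. Its normalized counts were 9910 and 6653 in SG and 5820 and 5904 in dSG. Dmrtb1 (ENSMUSG00000028610; chromosome 4, 107676290 to 107684230, - strand) was measured at 1111 and 475 in SG and at 435 and 396 in dSG. For both genes both dSG libraries were below both SG libraries, as in 32.7% of all tested genes, and for both the dSG values were much nearer to SG replicate 2 than to SG replicate 1. For Dmrt1 the log2 fold change was -0.47 (95% confidence interval -1.14 to 0.21, limma adjusted p = 0.297). For Dmrtb1 it was -0.80 (95% confidence interval -1.99 to 0.39, limma adjusted p = 0.308).

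The progenitor markers Neurog3 and Sox3 were both highest in SG replicate 1. Sox3 (ENSMUSG00000045179; chromosome X, 60891366 to 60893430, - strand, 1 exon) was measured at 2004 and 675 normalized counts in SG and at 779 and 734 in dSG. The dSG values lay between the SG values and close to the lower one, and the log2 fold change was -0.62 (95% confidence interval -2.08 to 0.84, limma adjusted p = 0.482). Without SG replicate 1 it was 0.16, and without SG replicate 2 it was -1.40. Neurog3 (ENSMUSG00000044312; chromosome 10, 62133090 to 62134763, + strand, 1 exon) was measured at 35.8 and 11.3 normalized counts in SG and at 3.63 and 13.1 in dSG, from 11, 18, 5 and 21 reads. Only SG replicate 1 reached 20 normalized counts, so Neurog3 was the one member left out by the filter, and the groups overlapped. Without the filter its change on the log2 scale was -1.11 (95% confidence interval -2.82 to 0.60, limma adjusted p = 0.368). Fam241b on the opposite strand overlaps 16.3% of the exon bases of Neurog3, and since the strand setting of the counting is not given, reads from that stretch cannot be assigned with certainty.

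Taf4b and Gata2 stood at different levels and neither passed the test. Taf4b (ENSMUSG00000054321; chromosome 18, 14783245 to 14900359, + strand) was measured at 1968 and 2876 normalized counts in SG and at 2311 and 2413 in dSG, with both dSG values between the SG values. It changed by -0.01 on the log2 scale (95% confidence interval -0.67 to 0.65, limma adjusted p = 0.980). Gata2 (ENSMUSG00000015053; chromosome 6, 88193891 to 88207032, + strand) was measured at 163 and 74.9 in SG and at 134 and 147 in dSG, again between the SG values. It changed by 0.33 on the log2 scale (95% confidence interval -0.80 to 1.46, limma adjusted p = 0.618). GATA2 and KIT also act in mast cells and blood, and 6 of 11 listed markers of mast cells, macrophages and blood had a row. The mast cell protease gene Cpa3 had 1 read in a single dSG library, and Ptprc (CD45) reached at most 18.2 normalized counts. Lyz2 was at 182 and 290 in SG and 302 and 272 in dSG, and Cd68 at 114 and 150 in SG and 112 and 106 in dSG.

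**Figure D2:**
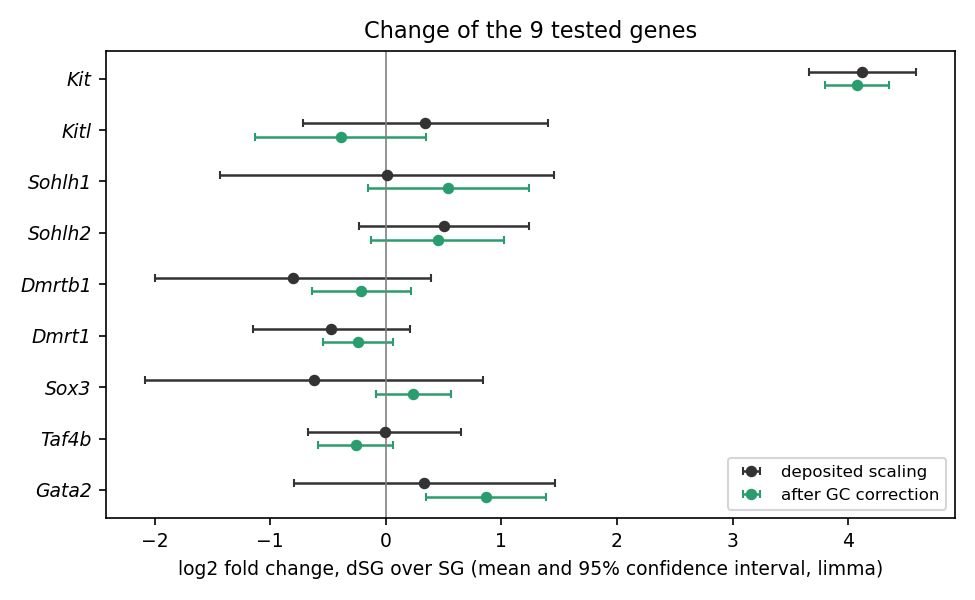
Log2 fold change of dSG over SG (x axis) with its 95% confidence interval from limma for the 9 tested genes (y axis), on the deposited scaling (black) and after GC correction (green). Kit stands at 4.12 and 4.08, and of the other 8 genes only the corrected interval of Gata2 leaves out 0.

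The gap between the SG libraries in these 10 genes went with the base composition of their transcripts. On the log2 scale, SG replicate 1 minus SG replicate 2 came to 1.56 for Sox3 (GC content of the longest transcript 66.4%), 1.22 for Dmrtb1 (59.3%), 1.08 for Gata2 (58.2%), 1.54 for Sohlh1 (58.1%), 1.38 for Neurog3 (57.3%) and 0.57 for Dmrt1 (52.9%). It was -0.12 for Kit (48.5%), -0.66 for Sohlh2 (48.3%), -0.55 for Taf4b (45.7%) and -0.83 for Kitl (39.3%). The 6 genes with the highest GC content were thus higher in SG replicate 1 and the other 4 higher in SG replicate 2. Over all tested genes the median of this difference went from -1.01 among the 10% of genes with the lowest GC content to 0.95 among the 10% with the highest, and the median log2 fold change of dSG over SG from 0.74 to -0.61. Across 14102 genes, which are not independent replicates, Spearman's rho between GC content and the replicate difference was 0.73 in SG and 0.28 in dSG.

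**Figure D3:**
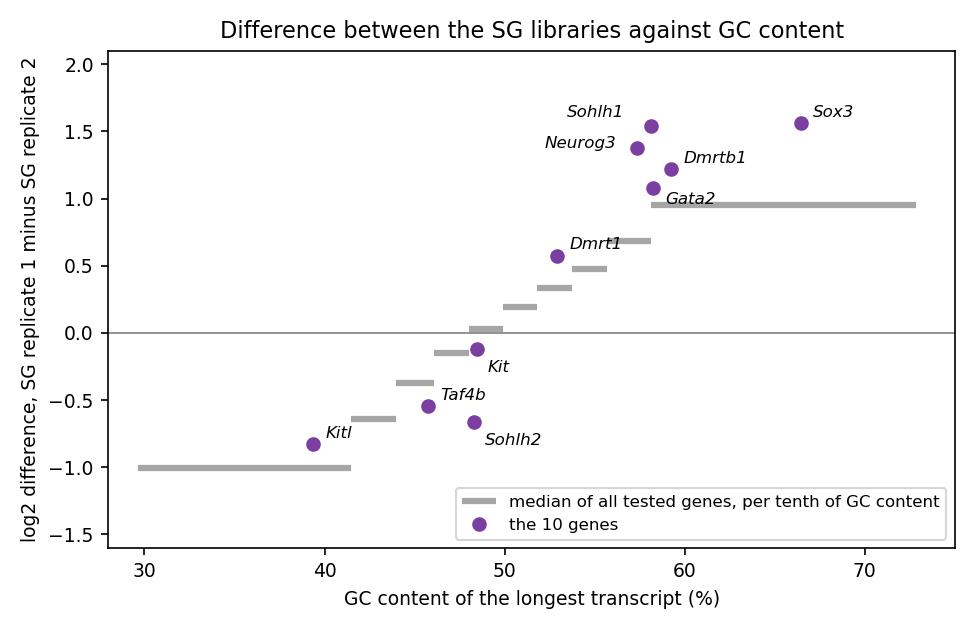
Difference on the log2 scale between the SG libraries, replicate 1 minus replicate 2 (y axis), against the GC content of the longest transcript (x axis, %). Purple points are the 10 genes and grey bars the median of all tested genes in each 10% of genes by GC content, which climbs from -1.01 to 0.95. Sox3 stands at 1.56 and Kitl at -0.83.

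After a GC trend was removed from each library, the members' SG libraries came closer and the directions of some members turned. Sohlh1 was then at 1656 and 970 in SG and at 1877 and 1815 in dSG, with a log2 fold change of 0.54 (limma adjusted p = 0.208). Sox3 was at 905 and 796 in SG and at 979 and 1023 in dSG, with 0.24 (adjusted p = 0.231) in place of -0.62. Kitl turned to -0.39 (adjusted p = 0.361). The differences of Dmrtb1 and Dmrt1 shrank to -0.21 and -0.24 (adjusted p = 0.385 and 0.205). Gata2 was at 101 and 81.1 in SG and at 158 and 179 in dSG, and its log2 fold change of 0.87 passed the test (limma adjusted p = 0.0425). In that fit, 21.3% of all genes were called, 8.15% higher in dSG, against 2 of the 9 tested members (Kit and Gata2) called higher and 0 lower. Among the fits of all 4 libraries, Gata2 passed only in the 2 with a GC correction (the other, with a replicate block, called 29.0% of all genes, 12.1% higher), and without SG replicate 2 on the deposited scaling it stood at -0.21.

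**Figure D4:**
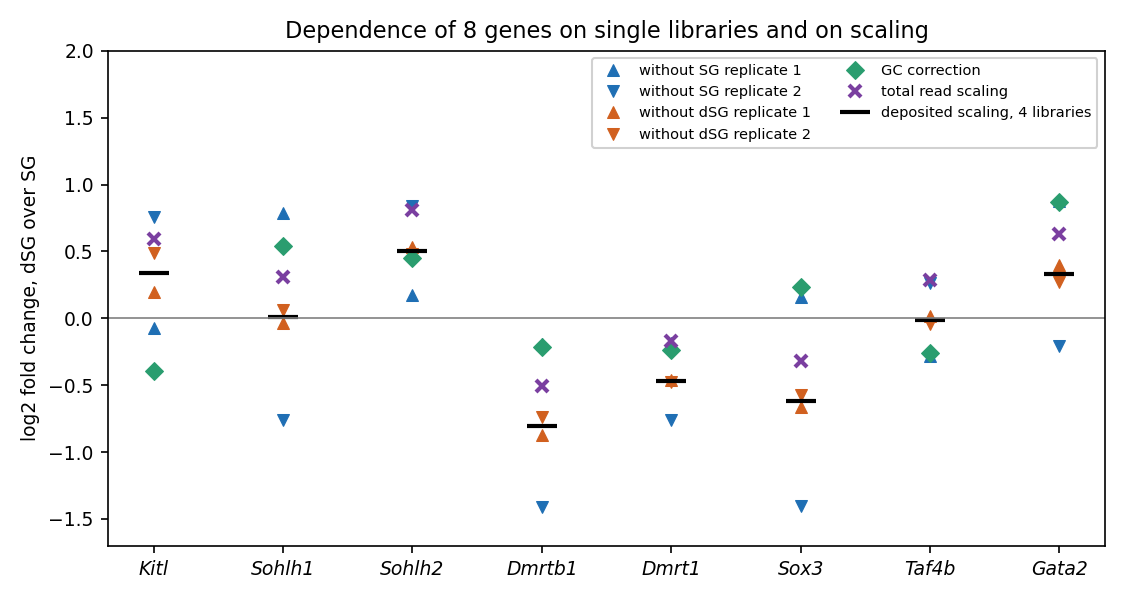
Log2 fold change of dSG over SG (y axis) for the 8 tested genes other than Kit, on the deposited scaling with 4 libraries (black bars), with 1 library left out (triangles), after GC correction (green diamonds) and with total read scaling (crosses). For Sohlh1 the value without SG replicate 1 is 0.78 and without SG replicate 2 is -0.76, while leaving out a dSG library gives -0.03 and 0.06.

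Leaving out 1 SG library changed more calls than any change of tool. Without SG replicate 1, limma called 4 of the 9 members higher (Kit, Sohlh1, Sohlh2 and Gata2) and 2 lower (Dmrt1 and Taf4b), and without SG replicate 2 it called 4 higher (Kit, Kitl, Sohlh2 and Taf4b) and 4 lower (Sohlh1, Dmrtb1, Dmrt1 and Sox3). Sohlh1 and Taf4b were called in opposite directions in these 2 fits. Such fits take their spread from the dSG pair alone and called 8434 and 11452 of the 14108 genes, so a call in them says little of a single gene. Kit and Sohlh2 were called higher and Dmrt1 lower in both.

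Genes of KIT signalling and relatives of the members were counted beside them. Of 41 adaptors, kinases and effectors of KIT signalling, 0 rose and 1 fell, against 1.16% and 4.91% of all tested genes, with a median log2 fold change of -0.15 against 0.01 over all tested genes. The one that fell was Sh2b3 (LNK), an adaptor that restrains KIT and cytokine receptor signalling, from 8571 and 4626 normalized counts in SG to 978 and 867 in dSG (log2 fold change -2.77, limma adjusted p = 0.0305). Pik3cd, a catalytic subunit of PI3-kinase, had a log2 fold change of -1.64 and the Src family kinase gene Fyn one of -0.83 (limma adjusted p = 0.0616 and 0.0776). Pik3cd was called lower by edgeR (adjusted p = 0.0454), by DESeq2 (adjusted p = 9.0e-05) and after GC correction (limma adjusted p = 0.00580). Fyn was called lower after GC correction only (limma adjusted p = 0.0137). Mitf, a transcription factor downstream of KIT in melanocytes and mast cells, was at 61.9 and 95.02 in SG and at 183 and 179 in dSG (log2 fold change 1.19, adjusted p = 0.0942). After GC correction, 2 genes of this list were called higher, among them Mitf (limma adjusted p = 0.0404), and 5 lower. By an unadjusted p under 0.05, 3 were up and 6 down, that is 9 of 41 against the 26.8% of all tested genes. EdgeR called 0 up and 2 down, and DESeq2 0 up and 3 down.

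Receptor and ligand genes of the kinase families related to KIT were called lower or not called on the deposited scaling. Of 11 tested, limma called 0 higher and 3 lower, edgeR 0 and 5, and DESeq2 0 and 7, with a median log2 fold change of -1.43. After GC correction 1 was called higher (Flt4, log2 fold change 1.33, limma adjusted p = 0.0243) and 7 lower. Flt1, a VEGF receptor, fell from 3653 and 4434 normalized counts to 231 and 233 (log2 fold change -4.09, limma adjusted p = 0.0237). Pdgfra, the PDGF receptor alpha, fell from 2229 and 2298 to 345 and 349 (-2.69, adjusted p = 0.0237), and the ligand gene Pdgfc fell from 39.1 and 34.0 to 5.80 and 5.01 (-2.11, adjusted p = 0.0380). Pdgfra is also a fibroblast marker, and the summed fibroblast and feeder markers given above, which include Pdgfra, were lower in dSG too. Flt1 is known from endothelium. Of the endothelial genes Pecam1 (267 and 261 in SG, 45.0 and 55.1 in dSG) was called lower with Flt1. Kdr (91.2 and 143, 47.1 and 38.8) and Cdh5 (52.1 and 28.3, 23.9 and 29.4) were not called, and Emcn did not exceed 1 read. Tek (29.3 and 56.6 in SG, 74.7 and 99.5 in dSG) went the other way and was not called. The part of such cells in the change of Flt1 was not tested. For Flt1 and Pdgfra the SG libraries lay close together, as they did for Kit.

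Of the bHLH factors and related genes listed beside the SOHLH pair, which include the homeobox genes Lhx8 and Nobox, 18 were tested. Of these, 0 rose and 2 fell, with a median log2 fold change of -0.35 (0 and 3 with edgeR). After GC correction 1 was called higher (Lyl1, 1.41, limma adjusted p = 0.0232) and 4 lower. The 2 were Bhlhe40 (636 and 522 normalized counts in SG, 50.05 and 64.5 in dSG, log2 fold change -3.25) and Bhlhe41 (1124 and 768 in SG, 82.0 and 70.1 in dSG, -3.55), transcriptional repressors of the circadian system (limma adjusted p = 0.0237 for both). The bHLH gene Twist1, also on the fibroblast and feeder list, was at 248 and 119 in SG and at 36.3 and 31.3 in dSG (-2.22, limma adjusted p = 0.0610). It was called lower by edgeR (adjusted p = 0.0463), by DESeq2 (adjusted p = 0.000124) and after GC correction (limma adjusted p = 0.00999). Lhx8, listed with the SOHLH factors for its role in oocytes, was at 0 and 6.29 in SG and at 22.5 and 31.9 in dSG (limma adjusted p = 0.0990). Of 13 SOX genes tested, 0 rose and 4 fell (log2 fold changes of -2.77 for Sox13, -2.55 for Sox9, -1.92 for Sox5 and -1.71 for Sox8), with a median of -0.75 (0 and 4 with edgeR). After GC correction 1 was called higher (Sox12, 1.005, limma adjusted p = 0.00782) and 5 lower. Sox9 and Sox8 are Sertoli cell genes. The summed Sertoli markers given above were lower in dSG, but Sox9 itself and Inhbb held most of that sum in SG. Of the 6 tested Sertoli genes, 4 had a negative log2 fold change and 2 a positive one (Wt1 0.15 and Inha 0.27). The part of Sertoli cells in the changes of the SOX genes was not tested.

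None of 4 other DMRT genes passed the test with limma, but Dmrt2 and Dmrt3 were well apart between groups. Dmrt3 was at 1209 and 550 normalized counts in SG and at 202 and 173 in dSG (log2 fold change -2.10, adjusted p = 0.0684), and Dmrt2 at 235 and 133 against 43.5 and 42.6 (-1.94, adjusted p = 0.0558). Both had an unadjusted p under 0.05, edgeR called Dmrt2 lower, and both were called lower by DESeq2 and after GC correction. None of 4 GATA and FOG genes was called by limma, the largest difference being that of the GATA cofactor gene Zfpm1 (FOG1), at 2079 and 739 in SG and 274 and 205 in dSG (-2.37, adjusted p = 0.0835), which alone had an unadjusted p under 0.05. Zfpm1 was not called by edgeR, but was called lower by DESeq2 (adjusted p = 1.3e-06) and after GC correction (adjusted p = 0.00588). None of 19 TFIID and TAF genes was called by limma, and their median log2 fold change was 0.10, with 0 at an unadjusted p under 0.05 and 0 called by edgeR or DESeq2. The somatic paralog Taf4 was at 1998 and 1781 in SG and 1478 and 1603 in dSG (-0.29, adjusted p = 0.343). Of the neurogenin relatives only Atoh8 and Ascl2 passed the filter, and neither was called by limma on the deposited scaling (1.57 and 0.57, adjusted p = 0.130 and 0.327). DESeq2 called Atoh8 higher (adjusted p = 0.0122), and both were called higher after GC correction (adjusted p = 0.00349 and 0.0190).

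Other markers of progenitors and differentiation were counted in the same way. Of 20 tested, 2 rose and 3 fell, with a median log2 fold change of -0.08 (2 and 3 with edgeR, 3 and 4 with DESeq2). After GC correction 2 were called higher and 5 lower. Stra8, the RA-induced gatekeeper of meiosis, rose from 134 and 37.8 normalized counts to 12205 and 12236 (log2 fold change 7.33, limma adjusted p = 0.0244). Nanos3, an RNA-binding protein gene of spermatogonia, rose from 78.2 and 59.8 to 237 and 203 (1.62, adjusted p = 0.0440). The 3 that fell were the cyclin gene Ccnd2 (-2.89), the E-cadherin gene Cdh1 (-1.94) and Lin28a (-1.02), a regulator of let-7 microRNAs (adjusted p = 0.0237, 0.0366 and 0.0477). Of 9 germ cell identity genes, limma called Gfra1 alone, the GDNF receptor of stem cells, at 4491 and 4414 in SG and 1667 and 1629 in dSG (-1.43, adjusted p = 0.0276). Zbtb16 (PLZF), a transcription factor of undifferentiated spermatogonia, was at 12426 and 6803 in SG and 3321 and 3122 in dSG (-1.51, limma adjusted p = 0.0784), and was called lower by DESeq2 (adjusted p = 0.000374) and after GC correction (adjusted p = 0.0139).

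The genes with the pattern most like that of Kit across the 4 libraries were found by the distance between centred log2 values, among 9483 tested genes with a mean of at least 200 normalized counts. The nearest was Erg, an ETS factor gene, at a distance of 0.36. It was at 209 and 179 in SG and at 2924 and 2805 in dSG (log2 fold change 3.86). Next came Cyp26a1, the RA-degrading enzyme gene (distance 1.24, log2 fold change 5.32), then Ago4, Spaca6 and Agpat3 (distances 1.42 to 1.51). Only Erg thus lay close to Kit. The distance is not scaled for the size of a change, so the gene with the 4th largest rise has few possible neighbours. The genes nearest to Sohlh1 were Fbrs, Esrra, Gtpbp6, Ehmt2 and Col11a1, at distances of 0.12 to 0.16. Their log2 fold changes of dSG over SG ran from -0.08 to 0.09. What they share with Sohlh1 is mainly the gap between the SG libraries (Fbrs at 3122 in SG replicate 1 and 1199 in SG replicate 2). Nearest to Neurog3 were Gm26391, Col9a3, Thap3, Matk and Jun, at distances of 0.41 to 0.75, a pattern that rests on 5 to 21 reads per library.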

How the data were processed

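RNA-seq values of 2 SG and 2 dSG libraries were compared once. The authors made directional paired-end libraries from Trizol-extracted total RNA. Alignment to GRCm38 was by Subread and gene counting by featureCounts 1.5.3. For the annotation release, strand setting and multi-mapping reads, the choices were not given in the sources used here. The deposited signal per gene is a normalized count, the reads over a library-wise size factor, although the table is named for RPKM. Undoing this scaling returned whole reads for 100% of the values (tolerance 0.01). The deposited log2 fold changes with standard errors, the score of the Wald test and the p-values are the authors' DESeq2 results and were not used, nor was their mean over the libraries.

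Limma 3.58.1 (trend) was run in R 4.3.3 on log2(normalized count + 4) over the 14108 genes with at least 20 in at least 2 libraries, with condition as the only term. A gene was called at a Benjamini-Hochberg adjusted p under 0.05. The methods state DESeq2. Since the values are normalized, edgeR 4.0.16 and DESeq2 1.42.0 were run on the recovered reads as alternatives. Values of members at under 20 reads are limited by counting error. The GC correction removed a lowess trend (span 0.3) of each library's log2 deviation on the GC content of the longest GENCODE vM21 transcript, over 14102 genes. Chi-square per degree of freedom between replicates was 230 (SG) and 13.2 (dSG), where sampling noise alone gives a value near 1. Expected reads were split by total reads rather than by size factor, with Lars2 kept in. These values therefore also hold scaling and composition differences between libraries, and are not a measure of the spread of a typical gene. Exon overlap and shared 50-base stretches were checked for the 10 members.

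Named genes are all 10 members, for each list the genes called and up to 4 others with the smallest p, Stra8, and the 5 genes closest to Kit, Sohlh1 and Neurog3. Some further markers and list genes are named for their level or direction. The members and lists were chosen with earlier results of these data known. Alternatives were other scalings, filters, pseudocounts, limits and tools, library weights, a replicate block, GC correction and leaving out each library. The GC correction without an SG library was added after seeing the data.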

Additional observations from a re-analysis of the deposited data

How the results depend on the processing

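Kit kept its call under all 23 alternatives. The fits without an SG library called most of all tested genes, with or without GC correction, so the member counts from them say little of the members. Members called higher numbered 2 after GC correction, with or without the replicate block, and 5 or 4 after GC correction without SG replicate 1 or 2. Members called lower then numbered 2 and 3. With 1 library left out, 1 to 4 members were called higher and 0 to 4 lower.

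Over all genes, 164 were called higher and 692 lower. The calls were 93 higher and 408 lower with total read scaling (which moved the median log2 fold change of all genes to 0.31), 108 higher with no filter, 47 and 273 with the filter of 40 in every library, 304 higher with library quality weights, 468 and 1468 with DESeq2, 546 and 1400 at an adjusted p under 0.1, and 1149 and 1857 after GC correction. After GC correction they were 4114 and 4643 without SG replicate 1, and 5208 and 5375 without SG replicate 2. With 1 library left out they ranged from 41 to 5431 higher and from 434 to 6021 lower.

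With the replicate block, 1150 genes were called higher and 1790 lower, and 1709 and 2379 with block and GC correction together. The block changed no member's call. Same-numbered libraries had a correlation of deviations of 0.23 across 14108 genes, and with 2 pairs the numbers were not taken as pairing.

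Directions turned for 5 members. Kitl went to -0.39 after GC correction (also with the block), to -0.29 without SG replicate 1 and to -0.49 without SG replicate 2 in that correction, and ranged from -0.073 to 0.75 with 1 library left out. Sox3 went to 0.24 (also with the block), 0.30 and 0.13, and ranged from -1.40 to 0.16. Sohlh1 was -0.11 with edgeR and -0.14 with DESeq2, and ranged from -0.76 to 0.78. Taf4b was 0.10 with quantile normalization, 0.067 with upper quartile scaling, 0.027 with median centring and 0.29 with total read scaling, and ranged from -0.28 to 0.26. Gata2 ranged from -0.21 to 0.87. The strict filter left no peritubular myoid gene and no value for that list. Why these values turned was not tested. The 6 reads of Kitl and 11 of Neurog3 in SG replicate 1 limit both genes.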

Other observations

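Marker lists beside those above were also counted. Of 2 Leydig cell genes tested, none was called (Star was at 196 and 267 normalized counts in SG and 302 and 304 in dSG), nor was any of 2 peritubular myoid genes (Des at 81.5 and 52.9 in SG, 26.1 and 20.0 in dSG) or of 3 macrophage and blood genes (Csf1r at 52.1 and 25.8 in SG, 30.5 and 35.7 in dSG). At an unadjusted p under 0.05 these lists held 0, 1 and 0 genes, and edgeR called 0 in each. Both tested myoid genes were lower in both dSG libraries. The myoid genes Acta2 (0 and 0.63 in SG, 14.5 and 21.3 in dSG) and Tagln (3.26 and 9.44, 10.9 and 14.4) were higher in dSG but did not pass the filter. Of 4 endothelial genes tested, Pecam1 was called lower in dSG (267 and 261 normalized counts in SG, 45.0 and 55.1 in dSG, log2 fold change -2.32, limma adjusted p = 0.0254). Tek, tested as well, was higher in both dSG libraries without a call (29.3 and 56.6 in SG, 74.7 and 99.5 in dSG).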
